A study of Mus musculus with 59 samples.

Results

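Melan-a cells, a line of pigmented melanocytes from C57BL6 mice, were compared with untreated melan-a cells on 2-colour expression arrays after treatment with recombinant murine agouti signal protein (ASP, 10 nM) or with α-melanocyte stimulating hormone (α-MSH, 100 nM). The treatments lasted 3 h, 1 d, 2 d, 3 d or 4 d. The subject here is a set of 137 probes chosen by their own values: a low mean under ASP at 3 h, and a mean near 0 under ASP at 1 d, 2 d, 3 d and 4 d and under late α-MSH. They were 137 of 38591 probes in all, and 0.733% of the 18694 probes that had a value on all 59 arrays. By the series' design, each replicate was hybridised against untreated cells once directly, with the treated RNA in Cy5, and once in reverse, with it in Cy3, giving 6 arrays for 3 replicates per treatment and time. ASP at 2 d had 5 arrays, because only the reverse array of its replicate 3 was analysed here. All cells were of 1 line, and no genotype differed between groups.

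α-MSH and ASP act on the same melanocyte receptor, the melanocortin 1 receptor (Mc1r). α-MSH is its agonist: it raises cyclic AMP, which induces the transcription factor Mitf and, through it, the enzymes that make brown-black eumelanin. ASP opposes α-MSH at the receptor, lowers its basal signalling and turns follicular melanocytes from eumelanin to yellow pheomelanin. The files used here do not pair probes with genes, so the probes are named by number, no gene, pathway or function is given for any of them, and the identity of the cells could not be checked against melanocyte markers or those of other cell types.

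The values given are the deposited channel ratios on a log scale, read as log2, with each array's median subtracted. Base 2, the authors' centring and the direction of the ratio are not stated, and the direction is likely treated over untreated. A value below 0 then stands for less of a transcript in treated than in untreated cells. The arrays held 22218 to 38371 values each, and array medians before centring ran from -1.435 to 0.69. On the direct ASP 3 h arrays the medians were -0.622, -0.807 and -0.24 for replicates 1, 2 and 3, and on the reverse arrays 0.69, 0.245 and 0.35. Which direct and which reverse array belong to 1 replicate is not labelled. They were paired in the order of their title numbers for ASP and of their database numbers for α-MSH. No signal intensities were used, so levels and background of single probes are unknown, and the number of arrays limits the precision. Fewer cells of a kind and less RNA per cell cannot be told apart in such ratios.

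The rule averaged the mean of the direct and the mean of the reverse arrays of a group. It kept probes at or below -0.8 under ASP at 3 h, within 0.4 of 0 at each later ASP time, and within 0.4 of 0 in the average of α-MSH at 3 d and 4 d. Of the 18694 probes with a value on all arrays, 336 (1.8%) were at or below -0.8 under ASP at 3 h. The later ASP times removed 191 of them and left 145, and the limit on late α-MSH removed 8 more. The same limits with the threshold turned to at least 0.8 chose 2 probes, so few probes rose in the way that the 137 fell. Means under ASP at 3 h therefore describe the choice and show nothing further. They ran from -1.87 to -0.80 with a median of -0.93, beside a median of 0.03 over all 18694 probes.

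The label "lowered by ASP only at 3 hours" held for the group means but not for the single arrays. On the direct array of replicate 3 the 137 probes had a median of -2.54 and ran from -4.97 to -0.47, with 137 of 137 below 0. On the reverse array of replicate 2 the median was -2.35 and the values ran from -4.16 to 0.25, with 136 below 0. These 2 arrays lay far below the other 4, and they carry opposite dyes and different replicate numbers. The direct arrays of replicates 1 and 2 had medians of 0.14 and 0.47, with 49 and 42 of the 137 probes below 0. The reverse arrays of replicates 1 and 3 had medians of -0.92 and -0.40, with 134 and 126 below 0. On these 4 arrays the medians were above 0 with the treated RNA in Cy5 and below 0 with it in Cy3. The interquartile range of all 18694 probes also turned with the dye, from 0.25 to 0.74 on the direct array of replicate 1 and from -0.79 to -0.21 on its reverse array. Against all probes, the 137 were in the lower part on each of the 4: their median percentile was 19.4 on the direct and 13.3 on the reverse array of replicate 1, 36.5 on the direct array of replicate 2 and 35.0 on the reverse array of replicate 3.

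**Figure D1:**
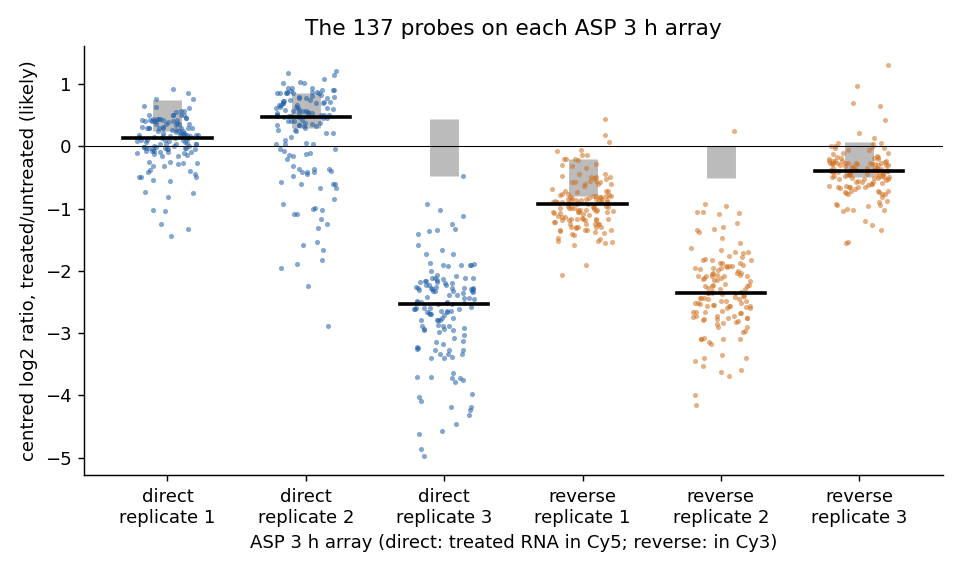
Centred log2 ratio of each of the 137 probes (points) on the 6 ASP 3 h arrays, with the median of the 137 (black line) and the interquartile range of all 18694 probes (grey bar). On the direct array of replicate 3 and the reverse array of replicate 2 the medians are -2.54 and -2.35, far below the grey bar; on the other 4 arrays they lie between -0.92 and 0.47, just below the bar on both arrays of replicate 1 and within it on the other 2.

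The mean of a probe over the direct array of replicate 3 and the reverse array of replicate 2, the 2 low arrays, ran from -3.98 to -0.98 with a median of -2.44. The mean of the other 4 arrays, 2 of each dye orientation, ran from -1.21 to 0.16 with a median of -0.22. The 2 arrays were the 2 lowest of the 6 for 124 of the 137 probes, and 132 of the probes were below -1 on both. Over all 18694 probes, 1158 (6.19%) were below -1 on both. Without these 2 arrays, the rule chose 9 probes, 7 of them among the 137. By themselves, then, the other 4 arrays would have kept few of the probes.

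The 2 arrays also resembled each other over the whole array. After removal of each probe's dye effect they correlated at 0.68 over 18694 probes, while the other 8 pairs of a direct with a reverse ASP 3 h array gave -0.21 to 0.25. The points of such a correlation share the arrays' spots and hybridisations and are no replicates. Values below -2 numbered 552 on the direct array of replicate 3 and 392 on the reverse array of replicate 2, against 4 to 59 on the other 4. Whether these 2 arrays held RNA of 1 culture, and what set them apart, was not tested.

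A further pair of arrays, outside ASP, was low in the same probes. In replicate 2 of α-MSH at 4 d, the 137 probes had a median of -0.72 on the direct array, with 121 below 0, and of -1.38 on the reverse array, with 134 below 0. The direct arrays of the other replicates had medians of 0.18 and 0.37, and the reverse arrays -0.03 and -0.30. Only replicate 2 of that group was therefore low, on both of its dyes; if pairs are read from the title numbers instead, its arrays belong to different replicates. On these 2 arrays the 137 probes lay near the bottom of all probes, with a median rank at percentile 4.04 on the direct and 2.0 on the reverse array, beside 1.34 and 1.24 on the 2 low ASP arrays.

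Over all 18694 probes, the mean of the 2 low ASP 3 h arrays correlated at 0.43 with the direct and 0.59 with the reverse array of that α-MSH replicate. The other 55 arrays correlated with it at -0.21 to 0.20. Over the 18557 probes outside the set the correlation with the mean of the 2 α-MSH arrays was 0.55, and over the 137 probes 0.56. The likeness was thus not confined to the set. The rule limited the range of the 137 on these arrays, so the 2 correlations cannot be compared in size. Of all 18694 probes, 187 (1.0%) were below -1 on all 4 of these arrays, and 40 of the 187 were among the 137. All hybridisations were against untreated cells, and whether any of these 4 arrays shared an untreated RNA is not stated.

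**Figure D2:**
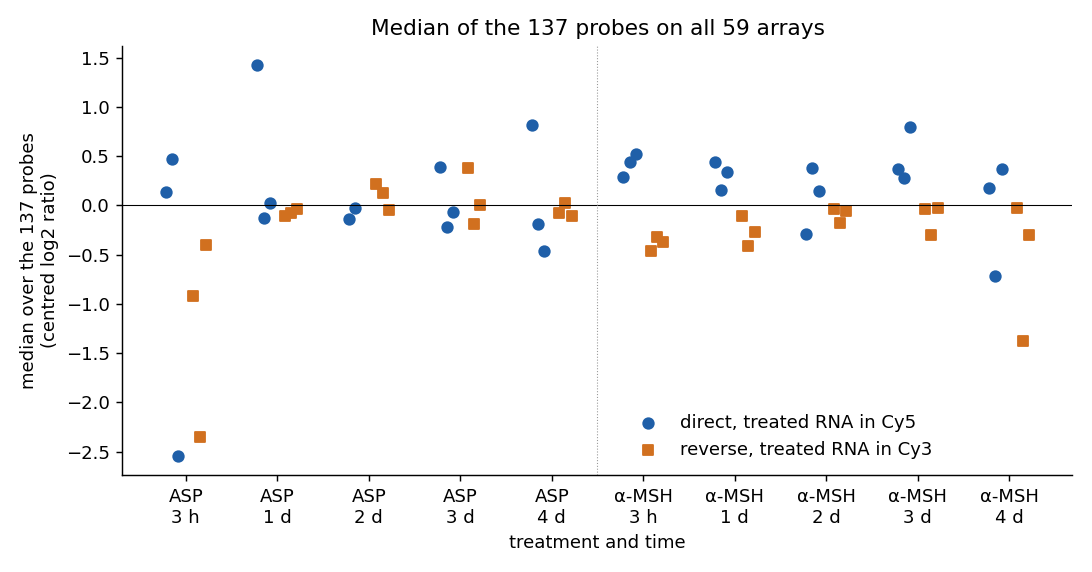
Median centred log2 ratio of the 137 probes on each of the 59 arrays, by treatment and time, with direct arrays (treated RNA in Cy5) as circles and reverse arrays (treated RNA in Cy3) as squares. Medians of -2.54 and -2.35 stand out under ASP at 3 h, -1.38 and -0.72 under α-MSH at 4 d, and 1.42 on 1 direct array of ASP at 1 d. On that ASP 1 d array the interquartile range of all probes with a value on all arrays was 0.83 to 1.54.

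The 199 probes that were as low at 3 h but failed a limit at other times behaved much the same. Their mean over the 2 low arrays had a median of -2.64, and over the other 4 arrays of -0.23. In α-MSH 4 d replicate 2 their median was -1.29, beside -1.05 for the 137 probes and 0.16 for all 18694. The probes removed by the limits at other times thus had medians close to those of the probes kept on these arrays.

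**Figure D3:**
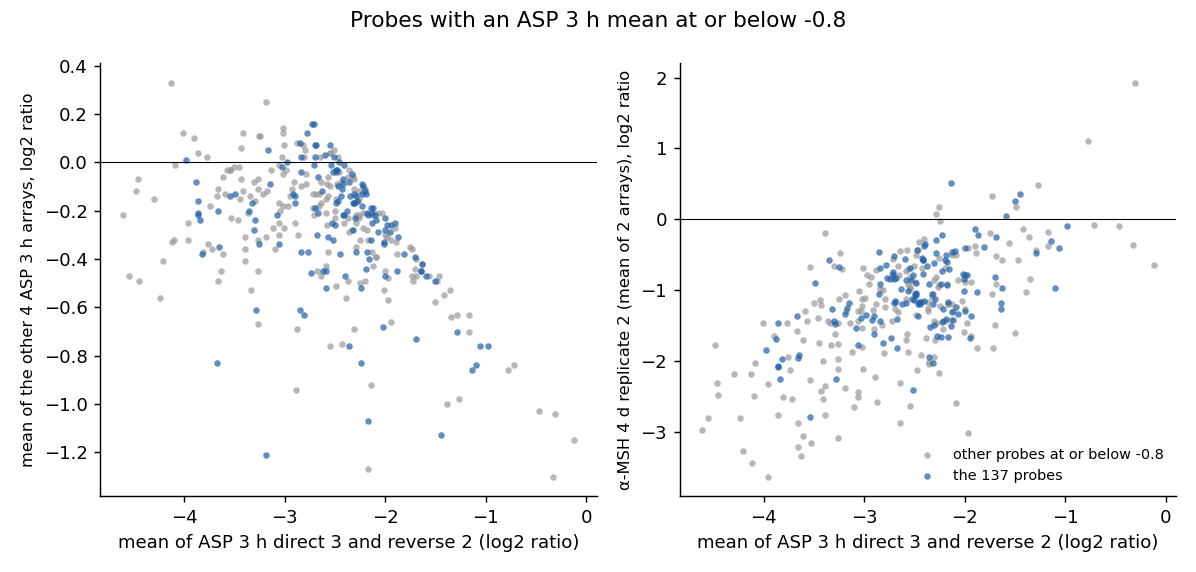
The 336 probes with an ASP 3 h mean at or below -0.8, as the mean of the direct array of replicate 3 and the reverse array of replicate 2 against the mean of the other 4 ASP 3 h arrays (left) and against α-MSH 4 d replicate 2 (right), all log2 ratios, with the 137 probes in blue and the other 199 in grey. The medians of the 137 and of the other 199 are -2.44 and -2.64 on the horizontal axis, -0.22 and -0.23 for the other 4 arrays and -1.05 and -1.29 in that α-MSH replicate; the slanted upper edge on the left is set by the threshold on the mean.

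With the 2 arrays of each replicate averaged, the median over the 137 probes under ASP at 3 h was -0.41 in replicate 1, -0.97 in replicate 2 and -1.50 in replicate 3. The mean of these medians was -0.96 ± 0.55 (SD, n = 3). For single probes the SD over the 3 replicates ran from 0.10 to 1.49 with a median of 0.61, beside a median SD of 0.25 over all 18694 probes. The SD comes from the values that chose the probes and depends on the pairing, so it is a description only. The 2 low arrays fell into different replicates by the pairing used, and 133 of the 137 probes were below 0 in all 3 replicates, as were 16.4% of all 18694. On the single arrays, 15 of the 137 were below 0 on all 6, beside 0.647% of all 18694.

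A limma fit over all 30 replicates, with each group mean set against 0 and Benjamini-Hochberg adjustment over all probes, called 47 of the 137 lower under ASP at 3 h at an adjusted p under 0.05, beside 0.388% of the 38402 probes tested. Because the same contrast chose the probes, nothing is read from this count. It rested on how the arrays were paired. If the 2 low arrays were taken as 1 replicate, the count was 1 with either arrangement of the other 4 arrays, and the medians of the replicates under the first of these arrangements were -0.41, 0.00 and -2.45. Over all probes tested, 1 was then called lower with either arrangement. The 3 remaining arrangements gave 33, 17 and 4, beside 108, 44 and 9 called lower over all probes. The count among the 137 was 113 without replicate 1, beside 787 called in either direction over all probes, where the full fit called 177. It was 2 without replicate 2 and 0 without replicate 3. It was 2 without the 2 low arrays, when the median of the fitted means moved from -0.93 to -0.13. In that fit the array left in each of replicates 2 and 3 stood for the whole replicate. The plain mean of the other 4 arrays had a median of -0.22. With the spread taken from the ASP replicates alone limma called 0, here and over all probes tested. At an unadjusted p under 0.05 limma gave 137 of the 137 in the full fit, beside 11.3% of all probes tested. It gave 137 with the ASP spread alone, 105 without replicate 3 and 25 without the 2 low arrays. Only the full fit has its share over all probes beside it here, so nothing is read from these counts either.

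Repeating the choice without 1 replicate left a replicate that had no part in the ASP 3 h threshold. The 325 probes chosen without replicate 1 had a median of -0.22 in replicate 1, where 271 were below 0 and 7 were at or below -0.8. The 140 chosen without replicate 2 had a median of -0.86 in it, with 133 below 0 and 78 at or below -0.8. The 49 chosen without replicate 3 had a median of -1.49 in it, with 47 below 0 and 41 at or below -0.8. Replicates 2 and 3 each hold 1 of the 2 low arrays by the pairing used, and replicate 1 holds neither. If the 2 low arrays were 1 replicate, the left-out values in replicates 2 and 3 would not come from separate low replicates. The other replicates would then have medians over the 137 of -0.41 and 0.00 or of -0.14 and -0.28. These medians come from the arrays that chose the 137, so they cannot decide whether the fall recurred between replicates. Over all 18694 probes, 49.8% were below 0 in replicate 1, 30.8% in replicate 2 and 61.1% in replicate 3. Every one of the 137 was also chosen without replicate 1, but only 106 without replicate 2 and 46 without replicate 3.

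The 3 earlier α-MSH times were not used by the rule and were tested. At 3 h of α-MSH the median over the 137 probes was -0.08, 0.03 and 0.06 in the 3 replicates, at 1 d it was 0.17, -0.11 and 0.03, and at 2 d it was -0.14, 0.07 and 0.05. The replicates lay on both sides of 0 at each time. By limma with Benjamini-Hochberg adjustment, 0 of the 137 were called at 3 h of α-MSH, where 0.0% of 38439 probes were called, 0 at 1 d (0.0% of 38494) and 0 at 2 d (0.0% of 38487). At an unadjusted p under 0.05 the limma fit also gave 0 of the 137 at each of these times, and 1.42%, 2.23% and 2.34% of all probes tested. The counts cannot be set against these shares, because the fit pooled the spread of all 10 groups. The median SD of the 137 was 0.61 at ASP 3 h and 0.65 at α-MSH 4 d. Over all probes with a value on all arrays it was 0.25 and 0.21. At the 3 times tested the 137 had a median SD of 0.21, 0.18 and 0.19. With a median standard error of 0.245 for a probe's group mean from the pooled spread, small changes of single probes could not have been detected.

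The medians of the 137 group means at these times were 0.01, 0.02 and 0.00, beside 0.04, 0.04 and 0.00 for all 18694 probes. At 3 h of α-MSH the 137 means ran from -0.30 to 0.44, and a single probe, 1791885_1, reached 0.4 in size. Probe 1791885_1 measured -0.72, 1.01 and 1.04 in the 3 replicates, a mean of 0.44 ± 1.01 (SD, n = 3), with a limma p of 0.106 and an adjusted p of 1.0. Its replicates had opposite signs, and this was the smallest p of the 137 at 3 h of α-MSH. At 1 d the smallest p was that of 1793709_1, which measured 0.18, 0.13 and 0.42, a mean of 0.24 ± 0.16 (SD, n = 3; limma p 0.193, adjusted p 1.0). At 2 d it was that of 1764619_1, at 0.36, 0.44 and 0.14, a mean of 0.31 ± 0.16 (SD, n = 3; limma p 0.155, adjusted p 1.0). Both probes were above 0 in 3 of 3 replicates, and neither mean passed the test. The probes next in order were 1794360_1 and 1796628_1 at 3 h of α-MSH, with means of -0.30 and -0.29, 1793727_1 and 1785534_1 at 1 d, with 0.26 and 0.21, and 1769936_1 and 1791369_1 at 2 d, with -0.33 and 0.31.

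At the later α-MSH times the rule limited only the average of 3 d and 4 d. The 137 probes had a median of 0.19 at 3 d, with 24 below 0, and of -0.31 at 4 d, with 124 below 0. Over all 18694 probes, 38.3% were below 0 at 3 d and 37.2% at 4 d. The values at 3 d and 4 d thus lay on opposite sides of 0, and their average had a median of -0.07. Taken singly, 18 probes were at or above 0.4 at 3 d and 44 at or below -0.4 at 4 d, so that 79 of the 137 were within 0.4 of 0 at both times and 58 were not. Over all 18694 probes, 8.3% were 0.4 or more from 0 at 3 d and 7.11% at 4 d. At 4 d the replicate medians were 0.11, -1.05 and 0.04, and the mean of replicates 1 and 3 for single probes ran from -0.36 to 0.53 with a median of 0.07. Only replicate 2 was low at 4 d, and leaving it out of the rule gave 131 probes, 129 of them among the 137.

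**Figure D4:**
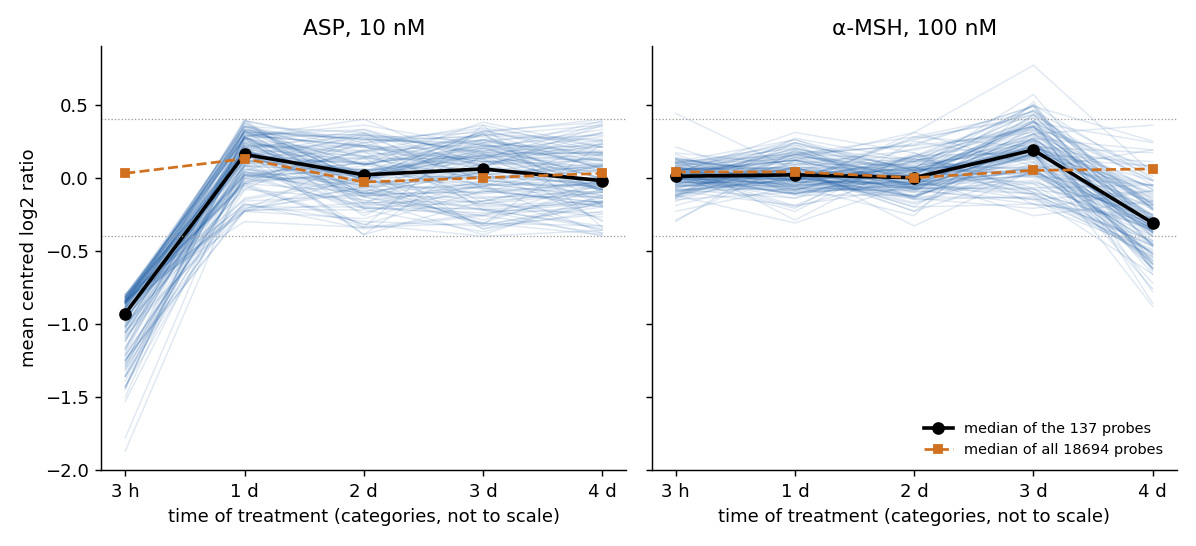
Mean centred log2 ratio of each of the 137 probes (thin lines) at the 5 times of ASP (left) and α-MSH (right), with their median (black) and the median of all 18694 probes (dashed); dotted lines mark 0.4 and -0.4. The low ASP mean at 3 h and the narrow ASP values later are set by the rule, and under α-MSH the median falls from 0.19 at 3 d to -0.31 at 4 d.

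Under ASP at 1 d, 2 d, 3 d and 4 d the rule held each mean within 0.4 of 0, and the medians were 0.16, 0.02, 0.06 and -0.02. The replicates were less even than the means. At 1 d of ASP the replicate medians were 0.63, -0.12 and -0.05, at 3 d they were 0.36, -0.25 and -0.07, and at 4 d 0.38, -0.11 and -0.29. Replicate 1 was the highest at each of these times, and also at 3 h of ASP. At 2 d of ASP the 3 replicates were 0.07, 0.09 and 0.05. The median SD of a probe over the replicates was 0.44 at 1 d, 0.35 at 3 d and 0.38 at 4 d for the 137 probes, beside 0.37, 0.16 and 0.19 for all 18694, and 0.18 against 0.22 at 2 d.

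Probe 1773435_1 had the lowest mean of the set. On the ASP 3 h arrays it measured -0.82, -0.39 and -2.99 on the direct and -2.07, -3.40 and -1.56 on the reverse arrays of replicates 1, 2 and 3. It was below 0 on 6 of 6 arrays, and the mean of the 4 arrays other than the 2 low ones was still -1.21. The mean over the 3 replicates was -1.87 ± 0.41 (SD). Its means at the later ASP times were 0.03, -0.11, -0.04 and -0.14. Across the 10 group means, the probes with the most similar course to 1773435_1 were 1775041_1 and 1784781_1, each at a Pearson r of 0.97, and 1790801_1 at 0.96. The first and second lay above the threshold, with ASP 3 h means of -0.64 and -0.69, and 1790801_1, at -1.25, was in the set. Of the probes with r over 0.9 to 1773435_1, 22 of 53 were among the 137; this likeness is dominated by the ASP 3 h mean that chose them.

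The next probes rested more on the 2 low arrays. Probe 1777794_1 measured -0.05, -1.54 and -4.62 on the direct and -1.11, -2.72 and -0.62 on the reverse arrays, a mean of -1.78 ± 1.06 (SD, n = 3). Probe 1794529_1 measured -0.07, 0.05 and -4.24 on the direct and -1.21, -3.40 and -0.30 on the reverse arrays, a mean of -1.53 ± 0.83 (SD, n = 3). Both were lowest on the direct array of replicate 3, and the second was near 0 on the remaining direct arrays. The means of 1797151_1, 1772094_1, 1762655_1, 1762948_1, 1795943_1 and 1763714_1 lay between -1.50 and -1.39, and their mean over the 4 other arrays between -0.61 and -0.16. Probe 1796119_1 differed from these. It measured -1.44, -1.67 and -2.28 on the direct and -1.22, -2.05 and 0.06 on the reverse arrays, a mean of -1.43 ± 0.38 (SD, n = 3), and its 4 other arrays averaged -1.07. It was low on 5 of 6 arrays.

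Probe 1785534_1 joined a low mean with a small spread. It measured -0.49, -0.61 and -1.58 on the direct and -1.90, -1.32 and -1.54 on the reverse arrays, and -1.20, -0.96 and -1.56 in the 3 replicates. Its mean was -1.24 ± 0.30 (SD, n = 3), and the 4 arrays other than the 2 low ones averaged -1.13. It was below 0 on 6 of 6 arrays. Under α-MSH at 3 h, 1 d and 2 d it was not called. In all, 7 of the 137 probes kept a mean at or below -0.8 over these 4 arrays: 1773435_1 (-1.21), 1785534_1 (-1.13), 1796119_1 (-1.07), 1781814_1 (-0.86), 1789741_1 (-0.84), 1777794_1 (-0.83) and 1797741_1 (-0.83). For 1789741_1 this mean rested on the direct array of replicate 2, at -2.89. It measured 0.03 and -0.20 on the direct and reverse arrays of replicate 1 and -0.31 on the reverse array of replicate 3. At the other end, 106 of the 137 had a mean above -0.4 over the 4 arrays, and 122 were below 0. No share over all probes is given for these counts, so they describe the 137 only.

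The 10 probes with the smallest SD over the ASP 3 h replicates were not those that stayed low on every array. They were 1794100_1, 1766219_1, 1786818_1, 1796628_1, 1794305_1, 1795698_1, 1785534_1, 1797293_1, 1791476_1 and 1797053_1, with SDs of 0.10 to 0.32. Probe 1794100_1, with the smallest SD, measured -0.72, -0.93 and -0.84 in the replicates but -0.03, 0.48 and -1.89 on the direct and -1.41, -2.35 and 0.21 on the reverse arrays. Its small SD arose from averaging unlike arrays. Of these 10, only 1785534_1 was below 0 on all 6 arrays, and 1797053_1 was below 0 on 3 of 6.

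The 3 probes just inside the threshold were 1796894_1, 1797293_1 and 1763172_1, with ASP 3 h means of -0.804, -0.802 and -0.801. The 3 just outside, within every other limit, were 1795941_1, which lies above -0.8 only before rounding, 1763147_1 at -0.799 and 1797744_1 at -0.798. These values run on without a step.

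The position of a probe in the list was not used by the rule. Probe numbers are only names here, and whether they follow position on the slide or the source of the clones is not stated. In the first 1000 numbers, 1762437 to 1763436, 11 of 761 measured probes (1.45%) were among the 137. In the next 30 blocks of 1000 it was 70 of 14733 (0.475%), and in the 5 blocks from 1793437 to 1798436 it was 55 of 3062 (1.8%). The probes were thus spread over the list and denser at its start and near its end, and the 336 probes low at 3 h were as well, at 7.75%, 1.12% and 3.59%. These stretches were marked off after the values were seen, so no test is given. The share of listed probes with a value on all arrays, which the rule required, was 76.1%, 49.2% and 63.7% in the same stretches.

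**Figure D5:**
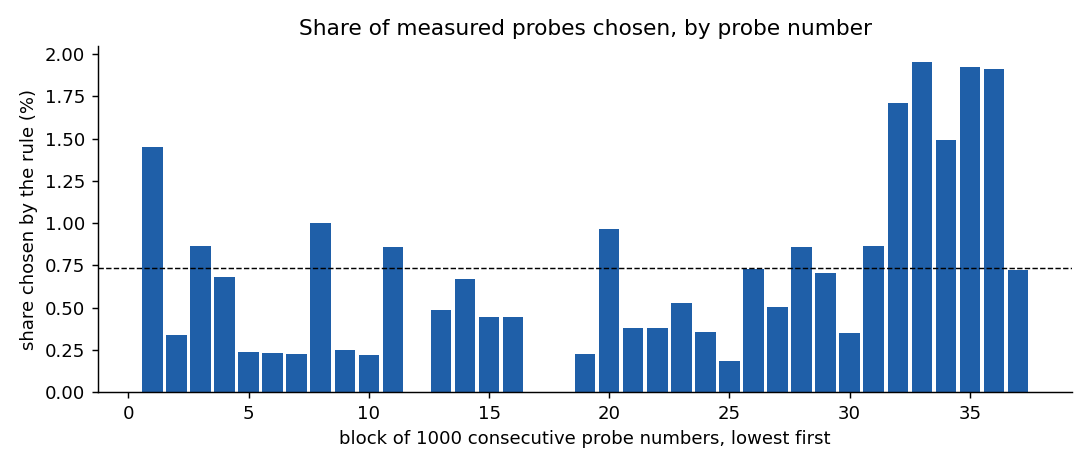
Share of the probes with a value on all arrays that the rule chose, in blocks of 1000 consecutive probe numbers, with the share over all 18694 (0.733%) as a dashed line. The first block stands at 1.45%, and the 5 blocks from 1793437 to 1798436 stand at 1.49% to 1.95%; blocks with no such probe are not drawn.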

How the data were processed

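The deposited table gives log ratios for 38591 probes on 59 arrays; they are treated as log2, and the sources used here do not give the authors' log base, centring, numerator, scanner, image software or spot filter. RNA came from a column kit and was labelled indirectly, per the labels' protocols. The probes and lists were chosen with earlier results of these data known. Each array's median was subtracted and the rule applied. For tests, each probe's dye effect per drug was removed, direct and reverse arrays were averaged to 30 replicates, and limma 3.58.1 in R 4.3.3 (lmFit, eBayes, group mean against 0, Benjamini-Hochberg) was fitted over all 10 groups and checked on simulated data. The lone reverse array of ASP at 2 d served as replicate 3. Replicates are triplicate treatments, per the series' design text, and no source names separate cultures. The p-values therefore measure the spread between these samples, paired as assumed and pooled over all 10 groups. α-MSH times used by the rule and the later ASP times were described, not tested. The limma calls at ASP 3 h come from the contrast that chose the probes and are given as a description only.

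Named probes were the 10 with the lowest ASP 3 h mean, the 3 just inside and 3 just outside the threshold, the 3 with the smallest p at each early α-MSH time, and the 10 with the smallest SD; the 7 low without the 2 arrays were named after their values were seen. Gene and marker lists could not be applied, as no table used here pairs probes with genes. Replicate numbers across times share no stated culture: same-numbered deviations correlated at -0.25 to 0.29 for ASP and -0.29 to 0.23 for α-MSH. The lowest correlation between arrays of 1 orientation was -0.20.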

Additional observations from a re-analysis of the deposited data

Results flagged for a closer look

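Among the 6 arrays of ASP at 1 d, the direct array of replicate 1 stood apart, with a median over the 137 probes of 1.36 after removal of the dye effect, while the other 5 lay between -0.26 and 0.04. Before that removal the median of the 137 on this array was 1.42. All probes with a value on all arrays had an interquartile range of 0.83 to 1.54 there. The median percentile of the 137 was 65.0, so the high values were not particular to the set. The median of this array before centring, -1.435, was the lowest of the 59. This was the only such array in 20 sets of arrays examined, the 10 groups and the 10 lowest probes at ASP 3 h. By the nominal rate of the marking, which was not computed from these data, chance marks about 1 in 20 of such sets. The low arrays of ASP at 3 h and of α-MSH at 4 d were not marked, since each group holds 2 of them.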

How the results depend on the processing

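The rule chose 74 probes with the 3 h threshold at -0.9 and 204 at -0.7, and 68 with the limit at 0.3 and 205 at 0.5. It chose 202 without centring, 169 with loess dye removal and 146 with a value on at least 4 arrays of each group. Leaving out 1 ASP 3 h replicate gave 49 to 325 probes. Chosen after seeing the data, leaving out single ASP 3 h arrays gave 276, 287 and 19 without direct arrays 1, 2 and 3. It gave 182, 45 and 253 without reverse arrays 1, 2 and 3, and 9 without both low arrays.

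The ASP 3 h calls among the 137 (47) became 96 without centring, 100 with loess dye removal, 82 with single arrays taken as independent, 113 with the pair as a random block, 127 with only probes valued on all arrays, 0 with the spread of ASP alone and 0 on Cy5 arrays alone (limma; 137 and 57 at an unadjusted p under 0.05), and 45 on Cy3 arrays alone (134 unadjusted). With the replicate block the calls among the 137 were 108 (511 over all probes, in either direction). The replicates share only a number (7 of 15 ASP and 9 of 15 α-MSH replicates correlated best with their own number). Where the count among the 137 rose, the count over all probes in either direction rose too, from 177 in the full fit. It was 449 without centring, 584 with loess dye removal and 371 with independent single arrays. It was 601 where pairs formed random blocks, and 626 when only probes valued on all arrays were fitted. The rises were thus not particular to the set. On Cy3 arrays alone the count over all probes was 335, while that among the 137 was 45. Without 1 replicate the calls ran from 0 to 113, the latter beside 787 over all probes in either direction. The median ran from -1.23 to -0.72. The 5 other pairings gave 1, 33, 1, 17 and 4, beside 1, 108, 1, 44 and 9 called lower over all probes. Without the 2 low arrays the calls were 2, with a median of -0.13. In this fit the array left in each of replicates 2 and 3 stood for the whole replicate. The fitted means were reversed for 1796894_1 (0.24), 1763172_1 (0.16), 1796628_1 (0.02), 1793727_1 (0.03) and 1797053_1 (0.10). The plain means of the same remaining arrays were 0.16, 0.16, -0.14, -0.03 and -0.05 in that order, so the reversal of the last probes depended on this weighting. Apart from the counts with fewer arrays or probes, the cause was not tested. At α-MSH 3 h, 1 d and 2 d the calls were 0 under each alternative, the replicate block and 0 to 0 without 1 replicate included, and without 1 replicate the medians ran from -0.02 to 0.04, -0.02 to 0.09 and -0.05 to 0.06.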
